A study of Mus musculus with 6 samples.

Results

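The experiment compared immune cells from mouse colon tumours labelled SOX17KO and Control at 1 week. Its members are the cell barcodes of the 1-week Control and 1-week SOX17KO libraries with at least 200 detected genes and at most 10% mitochondrial UMIs. A UMI, or unique molecular identifier, marks 1 captured RNA molecule. The rule gave 5492 Control and 7309 SOX17KO cells, 12801 of the 33862 cells that it keeps over the 6 libraries of the series. The labels name the genotypes Control and SOX17KO, the second for loss of the transcription factor SOX17. For each condition the tumours of 5 animals went into 1 pool, digested with collagenase and DNase; the sources do not state if this was so at each time. Viable (7-AAD-negative) cells that lacked the epithelial antigen EpCAM and carried the leukocyte antigen CD45 were sorted and run on the 10x Genomics 3' v3 platform. From which event the week was counted, which cells lost SOX17 and by what promoter or Cre line, and the age of the mice are not given in the sources used here. Each genotype was 1 library of pooled tumours. There is thus no replicate and no test, mice cannot be told apart from genotype, and all intervals below are 95% and cover counting error only.

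Tumour-infiltrating monocytes enter from blood through the chemokine receptor CCR2 and become macrophages in the tissue, while neutrophils are drawn by CXC chemokines and act early in inflammation. Type I interferons bind the receptor IFNAR1/IFNAR2 on nearly all cells and switch on a shared set of antiviral genes through a complex of factors that includes STAT2 and IRF9. In tumours that set is one of the main axes along which monocytes, neutrophils and dendritic cells vary.

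The Control matrix held 5579 barcodes and 37262312 UMIs, and the SOX17KO matrix 7495 barcodes and 52150180 UMIs. Depth per cell was similar, with a median of 5641 and 5926 UMIs and 2131 and 2194 genes. Mitochondrial UMIs made up a median of 2.27% and 2.46%. After removal of 241 and 427 likely doublets, 5251 Control and 6882 SOX17KO cells were kept. The libraries shared 13 cell barcodes. Ptprc, which encodes CD45, had a UMI in 87.6% and 87.0% of kept cells. Sox17 itself had 9 UMIs in 5 Control cells and 20 UMIs in 11 SOX17KO cells. Because the sort left out EpCAM-positive cells and SOX17 is not a gene of myeloid cells, these counts do not check the deletion. Xist had 1 and 4 UMIs, and both libraries carried Y-linked transcripts.

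Neutrophils made up a larger share of the SOX17KO cells, and monocytes and macrophages were the largest class of both libraries. Monocytes and macrophages were 2949 Control cells, 56.2% [54.8, 57.5], and 3840 SOX17KO cells, 55.8% [54.6, 57.0]. The log2 odds ratio of SOX17KO over Control was -0.02 [-0.13, 0.08]. Among the cells other than neutrophils they were 59.0% and 62.4%, with a log2 odds ratio of 0.20 [0.09, 0.32]. Neutrophils, which carry S100a8, S100a9 and Cxcr2, were 256 Control cells, 4.88% [4.31, 5.49], and 729 SOX17KO cells, 10.6% [9.88, 11.3]. Their log2 odds ratio was 1.21 [0.99, 1.43], the highest of the 5 classes with 100 or more cells per library. It was 0.78 with barcodes of at least 1000 UMIs alone. That setting also named as neutrophils a cluster of 136 Control and 140 SOX17KO cells that scored for macrophage markers as well. The other neutrophil cluster there held 239 and 664 cells. In the independent 2-week libraries neutrophils were 4.41% of Control and 8.27% of SOX17KO cells, with a log2 odds ratio of 0.96 [0.68, 1.25]. Dendritic cells, which present antigen to T cells, were 9.39% and 8.07%, with a log2 odds ratio of -0.24 [-0.43, -0.05]. Among the cells other than neutrophils their log2 odds ratio was -0.14 [-0.33, 0.04], an interval that spans 0. Fibroblasts, a non-immune class that passed the sort, were 2.76% and 3.46%, with a log2 odds ratio of 0.34 [0.03, 0.65]. At 2 weeks that value was 0.82 [0.41, 1.23].

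T, NK and innate lymphoid cells together were 11.1% of Control and 8.52% of SOX17KO cells, with a log2 odds ratio of -0.42 [-0.60, -0.24]. With all 6 libraries clustered together it was 0.13 [-0.12, 0.37]. The cells named T cells also carried macrophage transcripts, and in that joint clustering 207 of the 308 in Control and 176 of the 295 in SOX17KO fell among monocytes and macrophages. The lymphoid share at 1 week therefore has no settled direction. Mast cells numbered 15 and 40, with a log2 odds ratio of 1.03 [0.14, 1.99]. B cells numbered 29 and 31, and endothelial cells 33 and 49. Unnamed clusters held 13.9% of Control and 11.6% of SOX17KO cells. The largest of them, 1098 cells, had a median of 1314 UMIs, and another, 283 cells, carried both neutrophil and macrophage markers.

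**Figure D1:**
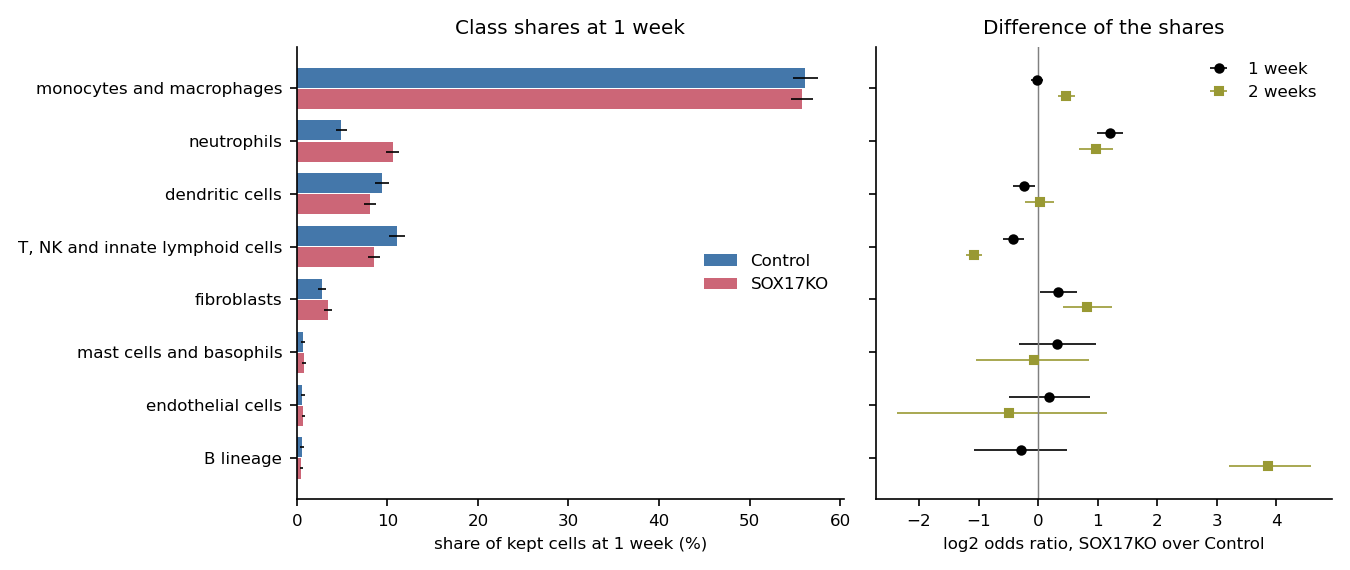
Left, the share of kept 1-week cells in each class (x axis, %) for Control (blue) and SOX17KO (red), with Clopper-Pearson 95% intervals as black lines. Right, the log2 odds ratio of SOX17KO over Control with its exact 95% interval at 1 week (black circles) and 2 weeks (olive squares); neutrophils lie at 1.21 and 0.96, and monocytes and macrophages at -0.02 at 1 week.

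In monocytes and macrophages the genes that stood lower in SOX17KO were led by interferon-stimulated genes, the chemokine Ccl8 and the peptide transporter Slc15a2. Those that stood higher were led by acute-phase genes (Saa3, Lcn2, Lrg1), the monocyte chitinase-like gene Chil3 and Fkbp5, a known target of the glucocorticoid receptor. Counts were summed per library within the class, divided by the class's total UMIs and given as CPM. A gene was called when its CPM ratio was at least 1.5-fold in either direction among genes with at least 100 UMIs over both libraries. Of 9965 genes compared, 116 were past 1.5-fold higher, 1.16%, and 127 past 1.5-fold lower, 1.27%. The median log2 ratio over all compared genes was 0.02, and a 2-fold rule left 18 higher and 24 lower. The cells of the class lay in different proportions in its 7 clusters: 1 cluster held 472 Control and 329 SOX17KO cells, and another 410 and 718. A monocyte cluster whose leading genes included the interferon-stimulated Ifit2, Rsad2 and Ifit1 held 489 Control and 436 SOX17KO cells. With doublets kept, a cluster led by the same genes held 199 and 98. Within the 7 clusters the median of the type I interferon-stimulated list ran from -0.51 to -0.14. An alternative that weighted the clusters as in Control is among those given at the end. Beyond that, the part of these proportions in the class ratios of interferon-stimulated genes was not tested.

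Chil3 (ENSMUSG00000040809, mm10 chr3:106147554-106167564), also called Ym1, marks inflammatory monocytes and was measured at 340 CPM in Control and 633 CPM in SOX17KO, a log2 ratio of 0.90 [0.86, 0.94]. It was higher in SOX17KO in all 7 clusters of the class. After each cell was thinned to 1000 UMIs, 21.1% of Control and 31.3% of SOX17KO cells had a Chil3 UMI (45.6% and 59.0% without thinning). NK cells, which should lack it, had one in 4.39% and 1.67% of thinned cells. Saa3 (ENSMUSG00000040026, chr7:46711998-46715700), an acute-phase serum amyloid gene, was measured at 25.4 and 57.6 CPM, a log2 ratio of 1.18 [1.03, 1.33]. Its UMIs were in 1.16% and 2.89% of thinned cells, so few cells of either library held one. In NK cells it was in 0 of 205 and 0 of 180, with exact upper bounds of 1.78% and 2.03%. Saa3 was more abundant in neutrophils, at 201 and 181 CPM, and in fibroblasts, at 198 and 758 CPM. The part of RNA from those cells in its value was not tested. By cluster Saa3 was higher in 6 of 7 and lower in 1 (-0.565). Lrg1 was higher in 3 of the 5 clusters with enough UMIs and lower in 2. Fkbp5 was measured at 13.1 and 29.3 CPM, a log2 ratio of 1.16 [0.94, 1.37], and was higher in all 7 clusters. The ratio of Fkbp5 was 1.06 [0.66, 1.46] in dendritic cells and 0.15 [-0.10, 0.40] in fibroblasts. Dnase1l3, a secreted DNase, was measured at 9.81 and 19.9 CPM, a log2 ratio of 1.02 [0.78, 1.28].

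Several of the other higher genes belong to neutrophils or rest on few cells. Wfdc21 was measured at 0.998 and 6.46 CPM (2.70) and Lcn2, a siderophore-binding antimicrobial protein, at 1.39 and 5.50 CPM (1.99). Both are abundant in neutrophils. The neutrophil markers S100a8 and Mmp9 also stood higher within the class, with log2 ratios of 1.5 and 1.87. The 12 neutrophil markers summed to 850 CPM in Control and 931 CPM in SOX17KO monocytes and macrophages, with all 12 detected in both. The part of neutrophil RNA in the Wfdc21 and Lcn2 values was not tested. Granzyme genes stood higher as well, Gzmb at 1.55 and Gzma at 2.80, but 1 SOX17KO cell held 42.2% of the library's Gzmb UMIs and 72.8% of its Gzma UMIs. Without the 5 cells with the most UMIs of each gene in each library, the Gzmb ratio was 0.66 [-0.40, 1.83].

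Among lower genes, Ccl8 (ENSMUSG00000009185, chr11:82115185-82116799), a chemokine for monocytes and T cells, was the most abundant, at 966 CPM in Control and 453 CPM in SOX17KO, a log2 ratio of -1.09 [-1.13, -1.06]. It was lower in all 7 clusters, by -1.29 to -0.11. Slc15a2 (ENSMUSG00000022899, chr16:36750177-36784962), which takes up small peptides, was measured at 29.5 and 7.76 CPM, a log2 ratio of -1.93 [-2.16, -1.69]. Every one of the 7 clusters was lower, by -2.35 to -1.34. Hspb1, a small heat shock protein gene, stood at -1.63, Cacnb2, a calcium channel subunit gene, at -1.26, and the endothelial lipase gene Lipg at -1.62. Ctsk, the collagen-cleaving cathepsin K, had the lowest fitted value of the named genes, -3.17, but 1 Control cell held 89.4% of that library's Ctsk UMIs. Without the 5 highest cells the Ctsk ratio was -0.01 [-0.82, 0.82].

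**Figure D2:**
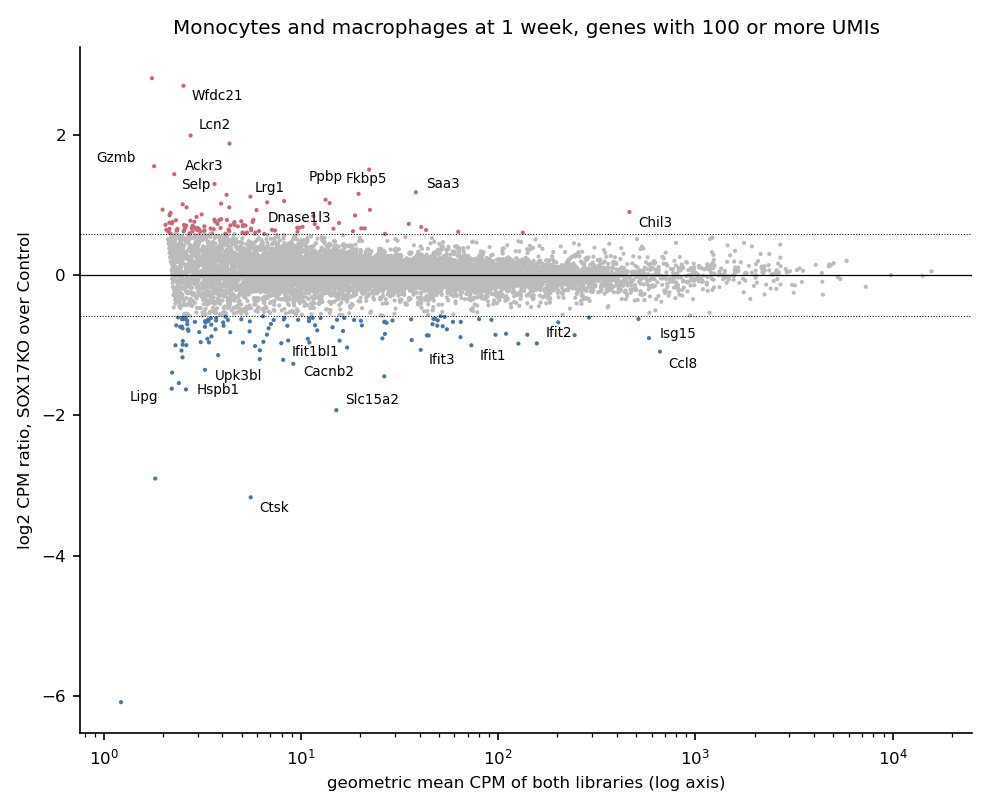
Each point is 1 of 9965 genes in monocytes and macrophages, with the geometric mean CPM of both libraries on a log x axis and the log2 CPM ratio of SOX17KO over Control on the y axis. Red and blue points are past 1.5-fold (dotted lines), 116 higher and 127 lower; the labelled genes are among the 12 highest and 12 lowest by the interval bound nearest to 1, and Ccl8 and Isg15 stand out as lower genes of high abundance.

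The interferon axis was followed from ligand to target. Type I interferon ligands were nearly undetected: the 13 Ifna genes summed to 0 UMIs in Control and 1 UMI in SOX17KO over all kept cells. Ifnb1, the ligand that macrophages and dendritic cells make first, had 2 Control and 22 SOX17KO UMIs, a log2 ratio of 3.0 [0.98, 6.14], 1 and 21 of them in monocytes and macrophages. The receptor genes Ifnar1 and Ifnar2 stood at 127 and 127 CPM (log2 ratio 0.00) and at 271 and 287 CPM (0.08) in monocytes and macrophages. The signal transducers Stat2 and Irf9 stood at -0.17 [-0.26, -0.09] and -0.18 [-0.29, -0.06]. Irf7, the factor that amplifies the response, was measured at 258 and 174 CPM, -0.57 [-0.62, -0.51]. The feedback inhibitors Usp18 and Socs1 were lower, Usp18 at 58.4 and 37.9 CPM (-0.62) and Socs1 at 189 and 105 CPM (-0.85). Ifng, which encodes the type II interferon made mainly by T and NK cells, was measured over all kept cells at 44.7 and 57.7 CPM, 0.37 [0.28, 0.46]. Among monocytes and macrophages, which hardly make it, 57 Control and 7 SOX17KO UMIs of Ifng were counted.

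All 32 genes of the type I interferon-stimulated list were below a ratio of 1 in monocytes and macrophages, and 10 were past 1.5-fold lower, against the 1.27% of all genes called lower. None was past 1.5-fold higher. The list's median log2 ratio was -0.36, against 0.02 over all genes. Isg15 (ENSMUSG00000035692, chr4:156199424-156200818), a ubiquitin-like protein that is conjugated to others, was measured at 795 CPM in Control and 427 CPM in SOX17KO, -0.90 [-0.93, -0.86]. Rsad2, which encodes the antiviral enzyme viperin, was measured at 329 and 182 CPM, -0.86 [-0.91, -0.80]. The RNA-binding Ifit genes were about as low: Ifit1 was measured at 104 and 51.7 CPM (-1.0), Ifit2 at 220 and 112 CPM (-0.97) and Ifit3 at 58.6 and 28.0 CPM (-1.07). Oasl1 (-0.89), Isg20 (-0.93), Cmpk2 (-0.86), Usp18 and Ifit3b completed the 10 that were past 1.5-fold. Ifit1, Ifit2 and Ifit3 share sequence, and how the counting treated reads that matched more than 1 of them was not checked.

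The proximal promoters of 4 of these genes are shown because their letters carry the site that interferon-activated factors are known to bind. The motif searched, on both strands, was a pair of GAAA repeats with NN between them, where N is any base. This is a common form of the interferon-stimulated response element. Each sequence is 50 bases of the RefSeq promoter on GRCm38, read 5′ to 3′ along the gene, with matches of the motif or its reverse complement in capitals.
Isg15: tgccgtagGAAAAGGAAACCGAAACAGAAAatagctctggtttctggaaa
Rsad2: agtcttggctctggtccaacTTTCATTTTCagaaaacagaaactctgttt
Ifit1: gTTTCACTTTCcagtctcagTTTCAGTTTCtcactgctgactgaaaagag
Ifit3: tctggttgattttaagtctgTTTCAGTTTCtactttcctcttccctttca
They lie at chr4:156200855-156200904 on the minus strand (Isg15), chr12:26456543-26456592 on the minus strand (Rsad2), chr19:34640784-34640833 on the plus strand (Ifit1) and chr19:34583387-34583436 on the plus strand (Ifit3). The motif ends 56, 110, 75 and 112 bases before the annotated start in that order. It was found in 15 of the 25 list genes with a promoter in the table, 60%, and in 1079 of 27025 genes, 3.99%. Among list members past 1.5-fold lower it was in 5 of 9, 55.6%, and among the other members in 10 of 16, 62.5%. The presence of these letters thus did not separate the members that were past 1.5-fold from those that were not, and a match is a description of the sequence only.

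**Figure D3:**
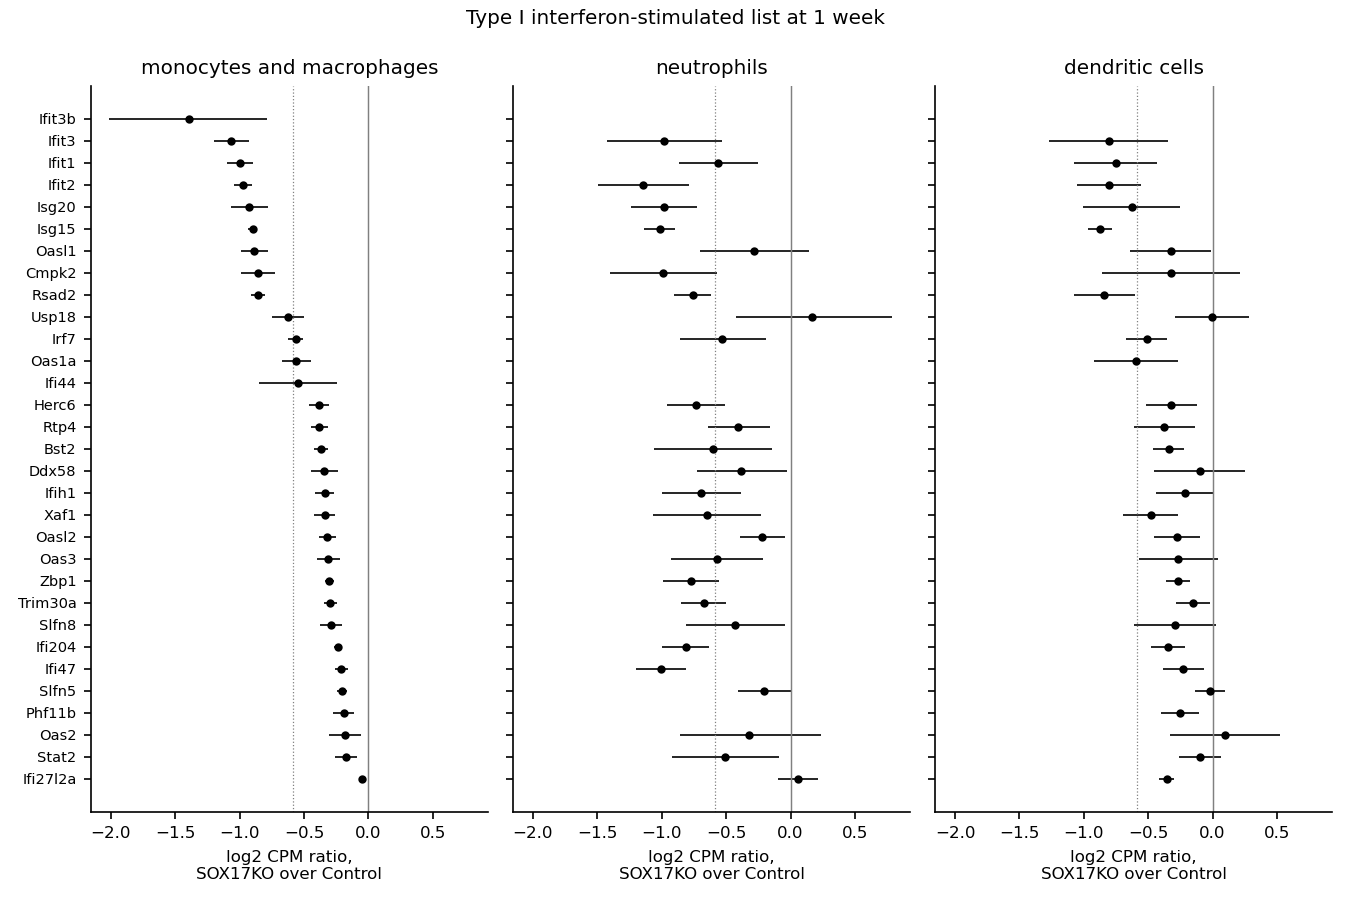
Log2 CPM ratio of SOX17KO over Control (x axis) with its exact 95% interval for genes of the type I interferon-stimulated list (rows) in monocytes and macrophages, neutrophils and dendritic cells at 1 week. The dotted line is 1.5-fold lower; in monocytes and macrophages every gene drawn lies left of 0, and 10 lie left of the dotted line.

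Per cell, the SOX17KO values lay below the Control values at the 25th percentile, the median and the 75th percentile. When each cell was thinned to 1000 UMIs, list genes gave a mean of 9.10 UMIs per Control and 7.23 per SOX17KO monocyte or macrophage, with medians of 8 and 6. The 25th percentiles were 5 and 4 and the 75th percentiles 12 and 10. Cells with 20 or more such UMIs were 7.08% of Control and 2.92% of SOX17KO cells. Isg15 had a UMI in 43.4% [41.6, 45.2] of Control and 28.6% [27.2, 30.1] of SOX17KO cells after thinning (78.5% and 69.2% without). In NK cells, taken as a comparison class, Isg15 had a UMI in 14.1% and 3.89% of thinned cells. Median depths there were 4431 and 4335 UMIs, against 5806 and 6652 in monocytes and macrophages. Isg15 was thus lower in SOX17KO in this comparison class as well. With all 6 libraries clustered together, 61 of the 206 Control and 14 of the 183 SOX17KO NK cells fell among monocytes and macrophages. The part of such cells and of free RNA in these shares was not tested. The median of the list was below 0 in all 7 clusters of the class, from -0.51 to -0.14. Isg15 was lower in all 7, while Ifit1, Ifit2 and Ifit3 were each lower in 6 and higher in 1, by 0.07, 0.08 and 0.31.

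**Figure D4:**
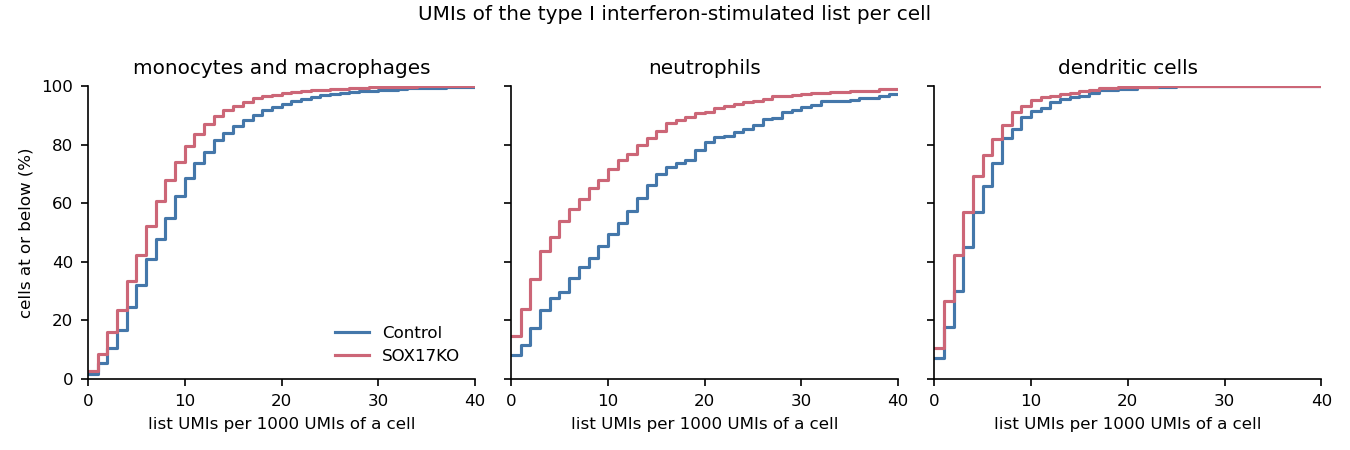
Cumulative share of cells (y axis, %) with up to a given number of UMIs of the type I interferon-stimulated list (x axis, UMIs among the 1000 to which each cell was thinned) for Control (blue) and SOX17KO (red). The SOX17KO curve lies above the Control curve over most of the range in the 3 classes, with medians of 6 against 8 UMIs in monocytes and macrophages, 5 against 11 in neutrophils and 3 against 4 in dendritic cells.

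Monocyte and macrophage clusters were also taken apart. In the clusters named monocytes, 1331 Control and 1850 SOX17KO cells, 124 of 8299 genes were past 1.5-fold higher, 1.49%, and 101 past it lower, 1.22%. There 12 of 31 interferon-stimulated genes were past 1.5-fold lower, with a median of -0.42. In the clusters named macrophages, 698 and 1044 cells, 91 of 8008 genes were past 1.5-fold higher, 1.14%, and 154 lower, 1.92%. Of their 30 interferon-stimulated genes 4 were past it lower, with a median of -0.23 and all 30 below a ratio of 1. Acute-phase genes past 1.5-fold higher numbered 4 of 16 in the monocyte clusters and 0 of 14 in the macrophage clusters. The differences between these cluster groups were not tested.

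Genes induced mainly by interferon-gamma were split between clusters of monocytes and macrophages. Of 28 compared, 1 was past 1.5-fold lower (Socs1) and none higher, against 1.27% of all genes lower, with a median of -0.10. The median by cluster ran from -0.46 to 0.09. It was lowest in a macrophage cluster of 381 Control and 619 SOX17KO cells, where 25 of 26 genes were below 1 and the type I list stood at -0.20. Cxcl10, which attracts T cells and answers to both interferon types, had a UMI in 48.8% of Control and 41.0% of SOX17KO thinned cells, while Cxcl9 had one in 32.5% and 31.6%. Of the 22 MHC class I presentation genes 21 were below a ratio of 1 with none past 1.5-fold, and the median was -0.14. MHC class II genes had a median of -0.15, with Cd74, the invariant chain, at 4886 and 4027 CPM (-0.28) and H2-Ab1 at 2576 and 2256 CPM (-0.19).

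Over the whole class the monocyte chemokine list had a median below 0 and the neutrophil chemokine list one above 0. Both lists also hold receptors and growth factors. In the monocyte chemokine list 2 of 18 genes were past 1.5-fold lower, Ccl8 and the fractalkine receptor Cx3cr1 (-0.66), and none higher, against 1.27% of all genes lower, with a median of -0.24. The CCR2 ligands Ccl7 and Ccl12 stood at -0.54 and -0.46 and Ccl2 at -0.20, while Ccr2 itself was measured at 956 and 991 CPM (0.05). Ccl2 had a UMI in 42.5% of Control and 34.2% of SOX17KO thinned cells. By cluster Ccl2 was higher in 3 of 7, and Cx3cr1 in 2 of the 6 with enough UMIs. In the neutrophil chemokine list 3 of 11 genes were past 1.5-fold higher and none lower, against 1.16% of all genes higher, with a median of 0.23. By cluster that median was above 0 in 4 of 7 and below 0 in 3, from -0.21 to 0.18. The 3 genes past 1.5-fold were Ppbp, a platelet-type CXC chemokine (9.20 and 19.4 CPM, 1.07), the granulocyte growth factor Csf3 (2.77 and 4.79 CPM, 0.79) and the formyl peptide receptor Fpr2 (16.1 and 25.5 CPM, 0.66). Of the CXCR2 ligands, Cxcl3 stood at 0.34 [0.26, 0.42] and between -1.82 and 1.95 by cluster, Cxcl1 at 0.17 [0.04, 0.31] and Cxcl2 at 0.14 [0.12, 0.17].

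In the acute-phase and antimicrobial list 6 of 18 genes were past 1.5-fold higher (Wfdc21, Lcn2, S100a8, Saa3, Lrg1 and S100a9) and 1 lower (Lyz1), with a median of 0.12. Over all genes of the class 1.16% were past 1.5-fold higher and 1.27% lower. S100a8 and S100a9 are also on the neutrophil marker list. Of the IL-1 family and cytokine list, Il23a (0.96) and Lif (0.67) were past 1.5-fold higher and the IL-1 receptor antagonist Il1rn (-0.61) past it lower, while Il1b stood at -0.10 [-0.11, -0.08]. All 13 mitochondrially encoded genes and 30 of 33 nuclear respiratory chain genes were above a ratio of 1, with medians of 0.17 and 0.10 and none past 1.5-fold. The suppressive and tissue-remodelling list was split, with 14 genes above and 14 below 1. In that list Chil3 and Mmp9 were past 1.5-fold higher, and the growth factor Hbegf (-0.73) and the PD-1 ligand Pdcd1lg2 (-0.67) past it lower. Hbegf was lower in all 7 clusters, and Pdcd1lg2 in 5 of 7, from -0.98 to 0.04. Arg1, the arginase of suppressive macrophages, had a UMI in 31.0% of Control and 29.8% of SOX17KO thinned cells. The complement gene C1qa had one in 26.9% and 23.5%, but in 40.7% and 40.5% without thinning.

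**Figure D5:**
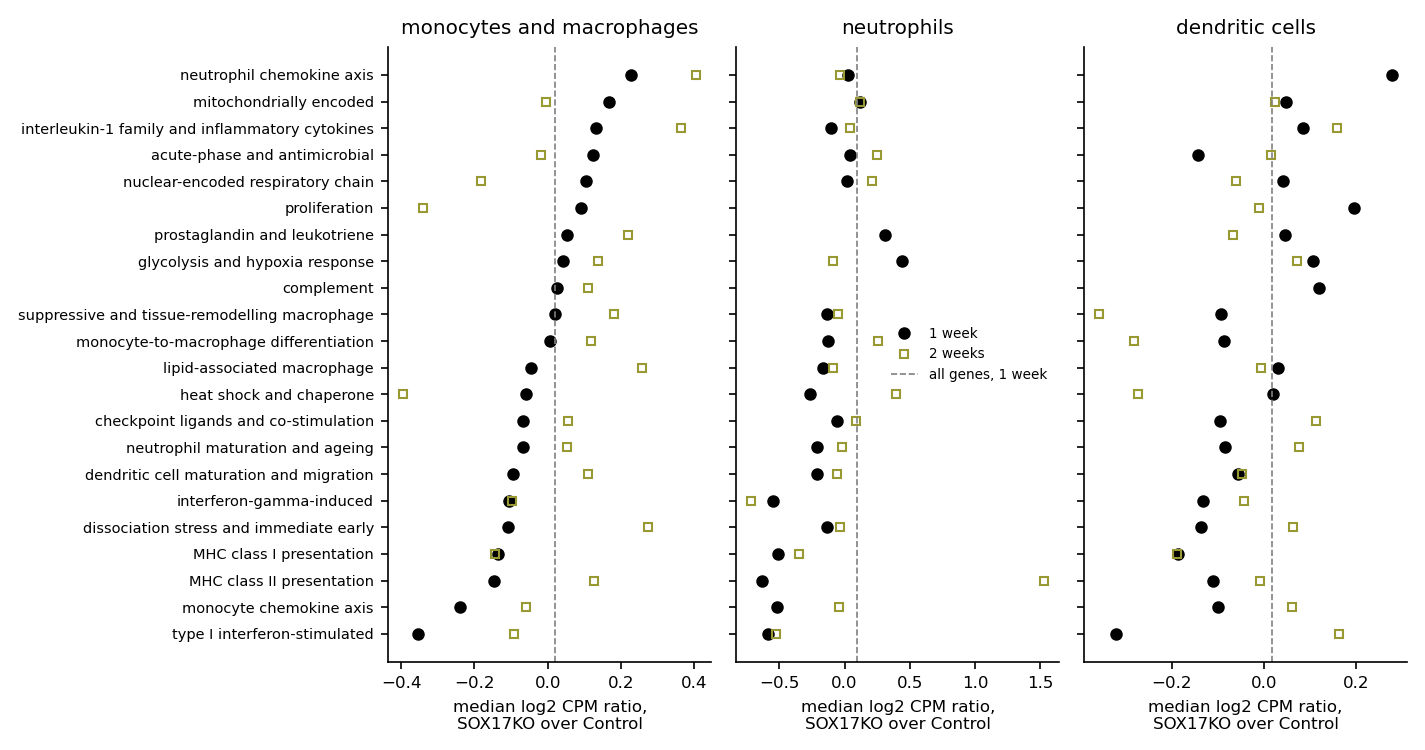
Median log2 CPM ratio of SOX17KO over Control (x axis) for each gene list with at least 5 compared members (rows) in 3 classes at 1 week (black circles) and 2 weeks (olive squares); the dashed line is the 1-week median over all genes. The x axes differ between panels; at 1 week the type I interferon-stimulated list lies at -0.36, -0.59 and -0.32.

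In neutrophils the median of the type I interferon-stimulated list stood lower still, and genes of glycolysis and the hypoxia response stood higher. Of 2977 genes compared, 303 were past 1.5-fold higher, 10.2%, and 150 past it lower, 5.04%. These counts rest on 576556 Control and 1576212 SOX17KO UMIs, a median of 1869 and 1970 per cell. Without the 5 highest cells of each library per gene they were 608 and 41. That setting takes 5 of 256 Control and 5 of 729 SOX17KO cells, and so raises neutrophil ratios by its construction. Of 28 type I interferon-stimulated genes, 14 were past 1.5-fold lower and none higher, with a median of -0.59. That median stayed between -0.76 and -0.49 under 13 alternatives. Isg15 was measured at 1613 and 797 CPM, -1.02 [-1.14, -0.89], and had a UMI in 60.6% [54.2, 66.7] and 36.0% [32.4, 39.8] of thinned neutrophils (71.5% and 49.8% without thinning). Rsad2 was measured at 1094 and 646 CPM (-0.76) and the GTPase gene Ifi47 at 671 and 334 CPM (-1.01). Members differed in how they stood against monocytes and macrophages. Isg15 and Ifit2 were further from 1, at -1.02 against -0.90 and -1.14 against -0.97. Ifit1 and Rsad2 were closer to 1, at -0.56 against -1.0 and -0.76 against -0.86. Usp18 stood at 0.16 [-0.43, 0.79] against -0.62. Neutrophils carried more list UMIs per cell than monocytes and macrophages in Control, a mean of 12.7, and 7.83 in SOX17KO.

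Interferon-gamma-induced genes were also lower in neutrophils, 8 of 19 past 1.5-fold with a median of -0.55. Over all genes compared in neutrophils 5.04% were past 1.5-fold lower. Cxcl10 was measured at 3181 and 1783 CPM (-0.83) and Gbp2, a guanylate-binding protein gene, at 3141 and 2015 CPM (-0.64). In MHC class I presentation 3 of 17 were past 1.5-fold lower, all subunits or activators of the immunoproteasome (Psmb8, Psmb10 and Psme2), with a median of -0.51. The inflammatory chemokines Ccl4 and Ccl3 were measured at 7231 and 2967 CPM (-1.28 [-1.35, -1.22]) and at 4230 and 2759 CPM (-0.62 [-0.69, -0.54]). Ccl2 (-2.15), Ccl5 (-2.23) and the matrix protein gene Spp1 (-1.47) were lower as well, but 1 Control cell held 37.0% of the Ccl2 UMIs, and without the 5 highest cells, with the upward shift given above, Ccl2 stood at -0.54 [-1.04, -0.02]. MHC class II genes had a median of -0.63, and of 0.05 without those cells, a value that holds the same upward shift. Of these genes, 1 Control cell held 52.9% of the H2-Ab1 UMIs. Macrophage markers summed to 999 CPM in Control and 664 CPM in SOX17KO neutrophils, with 11 and 12 of 12 detected, and the mannose receptor gene Mrc1 stood at -1.37. The part of macrophage RNA in the lower chemokine values was not tested.

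Higher in SOX17KO neutrophils were Stat4, a transducer of IL-12 and interferon signals (72.9 and 197 CPM, 1.43 [0.96, 1.93]), Ccnd3, the cyclin D3 gene (134 and 320 CPM, 1.26) and Slc2a3, the glucose transporter GLUT3 (93.7 and 226 CPM, 1.27). The choline transporter gene Slc44a1 (1.22) and Cd101 (1.31), a marker of mature neutrophils, were higher as well. Of 27 glycolysis and hypoxia genes 25 were above a ratio of 1 and 10 were past 1.5-fold higher, against 10.2% of all genes. Their median was 0.44, against 0.09 over all genes. Ero1l, an oxidase of the endoplasmic reticulum, was measured at 569 and 1037 CPM (0.87), the collagen prolyl hydroxylase gene P4ha1 at 118 and 226 CPM (0.94), and Vegfa at 86.7 and 158 CPM (0.87). With cells of at least 1000 UMIs alone the median was 0.11, and with other clusterings 0.13 to 0.14. At 1000 UMIs the neutrophil class also held a cluster that carried both neutrophil and macrophage markers.

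In dendritic cells 103 of 7649 genes were past 1.5-fold higher, 1.35%, and 89 past it lower, 1.16%. Of 30 type I interferon-stimulated genes 7 were past 1.5-fold lower and none higher, with a median of -0.32. Isg15 was measured at 508 and 277 CPM (-0.87 [-0.96, -0.78]) and Cxcl10 at 492 and 302 CPM (-0.70). Ccl8 (101 and 22.2 CPM, -2.19) and Slc15a2 (35.0 and 8.01 CPM, -2.13) were lower as in monocytes and macrophages. Fabp5, a fatty acid carrier, was the most abundant of the lower genes named, at 1986 and 1157 CPM, -0.78 [-0.83, -0.73]. Higher genes included Fkbp5, the double-stranded RNA receptor Tlr3 (18.0 and 35.6 CPM, 0.98), the metalloprotease Mmp19 (32.3 and 59.0 CPM, 0.87) and the platelet factor gene Pf4 (51.2 and 101 CPM, 0.98). Ccl8 and Pf4 were more abundant in monocytes and macrophages, at 966 and 453 CPM and at 634 and 791 CPM. The part of RNA from those cells in the dendritic cell values was not tested. Of 26 proliferation genes 23 were above a ratio of 1 and 3 were past 1.5-fold higher (Ccna2, Pclaf and Ccnb2), with a median of 0.20.

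The lymphoid and stromal classes are given with the other cells' RNA that moved in them. In T, NK and innate lymphoid cells 228 of 8343 genes were past 1.5-fold higher, 2.73%, and 182 lower, 2.18%. The type 17 cytokine gene Il17a was measured at 15.6 and 60.1 CPM, 1.95 [1.60, 2.31], Isg15 at 414 and 187 CPM (-1.15) and Slc15a2 at 35.6 and 7.12 CPM (-2.32). With barcodes of at least 1000 UMIs alone, a lymphoid cluster whose leading genes included Il17a held 39 Control and 66 SOX17KO cells. The part of such cell numbers in the Il17a ratio was not tested. Within the NK cells, macrophage markers summed to 1879 CPM in Control and 686 CPM in SOX17KO and MHC class II genes to 7556 and 1836 CPM, while NK markers summed to 9019 and 9868 CPM. In fibroblasts 369 of 7090 genes were past 1.5-fold higher, 5.2%, and 179 lower, 2.52%. Those that led were of macrophages, Ccl6 (3.63), Cd14 (2.78) and H2-Eb1 (2.33), beside the markers Arg1 (3.01) and C1qb (2.64). Fibroblasts were the only one of the 5 classes in which list UMIs per cell were not lower, at a mean of 4.83 in Control and 5.42 in SOX17KO, although Isg15 stood at -0.18. Over all kept cells 331 of 12508 genes were past 1.5-fold higher, 2.65%, and 177 lower, 1.42%. Among these, the neutrophil gene Ly6g (3.35) and the epithelial genes Krt8 (2.69) and Wfdc2 (2.95) were higher, and the goblet cell gene Spink4 (-3.21) and Mptx1 (-4.45) lower.

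Few genes were past 1.5-fold in the same direction in many classes. Of 7367 genes compared in at least 3 of the 5 classes, 20 were lower in 3 or more and 1, the cytokine gene Lif, was higher. In monocytes and macrophages Lif was higher in 1 of the 4 clusters with enough UMIs (0.85) and lower in the other 3. Among those lower in 4 classes were the interferon-stimulated Isg15, Isg20, Ifit2, Ifit3 and Rsad2, the niacin and ketone receptor gene Hcar2, the glutathione transferase gene Gstp1, and Rpl9, which encodes a ribosomal protein. For each of these, 1 of the 4 was the class of T, NK and innate lymphoid cells. In the joint clustering 207 of 308 Control and 176 of 295 SOX17KO cells named T cells fell among monocytes and macrophages. The part of macrophage RNA in the lymphoid values was not tested. Gstp1 was measured at 24.9 and 11.6 CPM over all kept cells (-1.10), and Rpl9 at 138 and 74.3 CPM (-0.89). In the fifth class, fibroblasts, Ifit2 was past 1.5-fold higher, at 38.9 and 71.3 CPM, 0.87 [0.52, 1.24].

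The 2-week pair, with its own Control library, gives the same contrast in other cells. In monocytes and macrophages Saa3 was measured there at 26.4 and 53.8 CPM, 1.03 [0.73, 1.32], and Dnase1l3 at 5.77 and 38.3 CPM, 2.73 [2.18, 3.33], both higher at either time. Isg15 was measured at 208 and 124 CPM, -0.74 [-0.88, -0.60]. The interferon list was closer to 1, with a median of -0.09 and 22 of 30 genes on the same side as at 1 week, and Ifit2 stood at 0.50 and Rsad2 at 0.28. Chil3 (0.09), Fkbp5 (-0.17) and Slc15a2 (0.20) were not past 1.5-fold at 2 weeks, and Ccl8 was higher there (34.6 and 68.6 CPM, 0.99). Of the genes past 1.5-fold at 1 week that could be compared, 26 of 38 higher and 23 of 54 lower genes had the same direction at 2 weeks, where 51.0% and 49.0% of all genes lay on those sides. In neutrophils the interferon list kept its side, with a median of -0.52 and 13 of 15 genes on the same side as at 1 week, and Isg15 at -0.91 [-1.19, -0.63]. The glycolysis and hypoxia list stood at -0.09 in 2-week neutrophils. In dendritic cells the interferon list had a median of 0.16 at 2 weeks, although Isg15 stood at -0.55 [-0.79, -0.32]. Differences between the times were not tested, with 1 library for each genotype and time. The untimed pair is not set beside these values, since its monocytes and macrophages fell into different clusters by genotype.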

How the data were processed

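Single-cell RNA was measured in 2 libraries at 1 week, 1 per genotype, and the 2-week pair and untimed pair were handled by the same steps. The authors deposited raw UMI counts per gene and cell barcode, without normalisation, made with Cell Ranger 7.0.1 per the file headers. The submitters' processing notes instead give version 6.0.1, with mm10 as the build. The sources do not state if intronic reads were counted. From these counts everything else was computed with Python 3.11.15, scanpy 1.11.5 and scipy 1.17.1.

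Barcodes with under 200 genes or over 10% mitochondrial UMIs were removed, as were the top 0.8% per 1000 recovered barcodes by simulated-doublet score. Each pair was clustered alone (counts scaled to 10000 per cell, 2000 variable genes, 30 principal components, 15 neighbours, Leiden resolution 1). Clusters were named from 22 marker lists, by a scoring rule set after the clusters were seen. A cluster needed a score of 1 and 3 markers detected in 10% of cells. Counts were then summed per library and class. CPM ratios carry exact conditional binomial intervals, shares carry Clopper-Pearson intervals, and odds ratios carry exact conditional intervals, all at 95%. PCR duplicates are collapsed by UMIs, but intervals cover counting error only. A gene with 100 UMIs in a class has a wide interval: the median width was 0.35 (log2) in monocytes and macrophages and 0.87 in neutrophils. The fold rule and intervals were tested on simulated counts.

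The named genes were the 12 highest and 12 lowest per main class (5 in other classes) by the interval bound nearest to 1, with a UMI in at least 20 cells of 1 library, without receptor segments, mitochondrial, ribosomal, haemoglobin, sex-linked and unnamed gene models and markers of other classes. Up to 4 members with the largest ratios per list and 18 readout genes were added. Other members and Rpl9 were named after their values were seen. The classes, markers and 25 gene lists were chosen with earlier results of these data known, so the lists are descriptions, and no set test was run. The results of some genes are not reported here. The list genes Il36g, S100a12 and Aldoa were not matched by symbol. Positions are from GENCODE for mm10, matched by Ensembl identifier. Promoter sequences came from RefSeq on GRCm38.p6. Alternatives covered doublets, filters, clustering, scaling (TMM of edgeR 4.0.16 and median of ratios of DESeq2 1.42.0), minimum counts and fold. An alternative without the 5 highest cells per gene and library was chosen after seeing the data.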

Additional observations from a re-analysis of the deposited data

Results flagged for a closer look

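For 6 results the 1-week and 2-week pairs moved in opposite directions, with both counting intervals away from 0. The genes searched were the 12 highest and 12 lowest per class, with at least 100 UMIs and past 1.5-fold at both times. The difference between the times was not tested for any of them. The share of NK cells had a log2 odds ratio of -0.58 at 1 week and 0.36 at 2 weeks. In the joint clustering the 1-week NK value was -0.14 [-0.48, 0.19], and 61 of the 206 Control and 14 of the 183 SOX17KO NK cells fell there among monocytes and macrophages.

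In monocytes and macrophages Ccl8, the monocyte and T cell chemokine, stood at -1.09 at 1 week and 0.99 at 2 weeks. Its level was also far lower at 2 weeks, 34.6 CPM in Control against 966 CPM at 1 week. Gzmb stood at 1.55 and -0.90 in the same class, on few cells at 1 week. Spp1, a matrix and cytokine-like protein gene, stood at -1.47 in neutrophils at 1 week and 0.60 at 2 weeks. In dendritic cells the peptide transporter gene Slc15a2 stood at -2.13 and 1.37, and the antiviral gene Rsad2 at -0.84 and 0.83. Outside that search, in monocytes and macrophages the fractalkine receptor gene Cx3cr1 stood at -0.66 [-0.83, -0.50] and 0.59 [0.32, 0.86], the lysozyme gene Lyz1 at -0.80 and 1.33, and the neutrophil gene S100a8 at 1.5 and -0.95.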

How the results depend on the processing

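Of the alternatives to class shares, 27 of 35 moved by less than the counting interval, as did 191 of 206 list medians and 788 of 908 values of named genes. Counts of genes were within 1.5 times in 60 of 88. Where a value moved, the cause was not tested, unless the setting itself changes how many genes are compared. The type I interferon-stimulated median stayed between -0.37 and -0.29 in monocytes and macrophages, -0.76 and -0.49 in neutrophils, and -0.38 and -0.29 in dendritic cells. Depth limited neutrophils most, with a median of 1869 and 1970 UMIs per cell. Leaving out the 5 highest cells takes 5 of 256 Control and 5 of 729 SOX17KO neutrophils, so that setting raises ratios there by its construction.

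With doublets kept, the log2 odds of the monocyte and macrophage share was -0.15 and of the neutrophil share 0.94. With unnamed clusters counted with the closest class they were -0.13 and 0.84. The neutrophil share was 0.78 with at least 1000 UMIs per barcode and 0.84 at resolutions 0.5 and 2. With at least 1000 UMIs or the closest class, neutrophils also held a cluster that carried both neutrophil and macrophage markers. At resolution 0.5 the class held 392 Control and 870 SOX17KO cells, against 256 and 729 in the main run. The T, NK and innate lymphoid share reversed to 0.13 with all 6 libraries clustered together.

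Genes past 1.5-fold in monocytes and macrophages were 584 higher and 422 lower at a minimum of 20 UMIs, 22 and 52 at 500, and 18 and 24 past 2-fold. Averaging over cells gave 185 higher, and joint clustering 330 lower. In neutrophils the same 3 settings gave 1183 and 602, 32 and 38, and 47 and 23. Without the 5 highest cells they were 608 and 41, all 41 among the 150. Keeping doublets gave 198 higher, and 278, 292, 291 and 299 were lower with 1000 UMIs, resolution 0.5, resolution 2 and the closest class. In dendritic cells they were 586 and 424, 9 and 20, and 9 and 15, with 202 higher by averaging over cells.

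Among list medians of monocytes and macrophages, interferon-gamma was -0.16 in joint clustering and -0.034 with clusters weighted as in Control, monocyte chemokines -0.14 and -0.18, MHC class II -0.093 when weighted, and neutrophil chemokines 0.33 at 20 UMIs. In neutrophils MHC class II was -0.21 with doublets, -0.34 averaged over cells and reversed to 0.054 without the 5 highest cells. Monocyte chemokines were -0.078 at 500 UMIs and -0.065 without those cells. Glycolysis was 0.11 with 1000 UMIs, 0.13 and 0.14 at resolutions 0.5 and 2, and 0.13 with the closest class.

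Reversed genes were Ctsk (0.52 at 5% mitochondrial UMIs, 0.38 at resolution 2) and Gzmb (-0.54 jointly) in monocytes and macrophages. Pf4 in neutrophils was 0.22 with doublets, 0.49 with 1000 UMIs, 0.52 and 0.51 at resolutions 0.5 and 2, 0.53 with the closest class and 3.13 without the 5 highest cells. In dendritic cells Aldh1a2 was -0.16 averaged over cells and Nos2 0.10 jointly. Shares of cells with a UMI gave, without thinning, log2 odds of -0.012 for C1qa, -0.70 for Isg15 and a reversed 0.028 for Cd274, and at 500 UMIs 1.04 for Chil3.

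The scalings TMM and median of ratios shifted ratios by -0.04 to -0.01 (log2). Weighting clusters could not be done in neutrophils, which are 1 cluster. No paired analysis was possible because the labels give no replicate numbers and each genotype is 1 library.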

Other observations

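Genes of leukotriene and prostaglandin metabolism were not described above. In monocytes and macrophages 3 of the 17 compared were past 1.5-fold lower in SOX17KO at 1 week and none higher, against 1.27% of all genes lower. The list's median was above 0 in 6 of the 7 clusters, from -0.13 to 0.40. Ltc4s, the leukotriene C4 synthase, was measured at 21.7 and 11.4 CPM, a log2 ratio of -0.93 [-1.16, -0.72]. Of the 2 clusters with enough UMIs, Ltc4s was higher in 1 (0.66) and lower in the other (-1.42). Alox5, the 5-lipoxygenase, was measured at 7.26 and 4.16 CPM (-0.80), and the prostaglandin-degrading dehydrogenase gene Hpgd at 15.9 and 9.21 CPM (-0.79). Alox5 had enough UMIs in 1 cluster, where it was lower, and Hpgd was lower in all 4 that had enough. The abundant members stood closer to 1, Ptgs2, the inducible cyclooxygenase, at 1010 and 1088 CPM (0.11) and Alox5ap at 520 and 526 CPM (0.02). Pla2g7, a phospholipase that degrades platelet-activating factor, was measured at 207 and 283 CPM (0.45 [0.40, 0.51]) and was higher in all 7 clusters. At 2 weeks Ltc4s stood at 2.20 [1.09, 3.51] and Hpgd at -0.30 [-0.77, 0.17].

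Of the genes past 1.5-fold lower in several classes, Hcar2 stood at -0.84 in monocytes and macrophages, -0.71 in neutrophils and -1.11 in T, NK and innate lymphoid cells. Inhba, a subunit of activin, stood at -0.84, -0.79 in dendritic cells and -1.71 in T, NK and innate lymphoid cells. Gstp1 stood at -1.03, -1.35 in dendritic cells, -1.28 in T, NK and innate lymphoid cells and -1.25 in fibroblasts. The class of T, NK and innate lymphoid cells also carried macrophage transcripts, and their part in its values was not tested.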
